A study of Arabidopsis thaliana with 6 samples.

Results

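The coiled-coil NBS-LRR genes of Arabidopsis thaliana encode immune receptors that work inside the cell. A list of 57 such genes was matched by locus code to probe sets that the platform annotation gives to exactly 1 gene, and 25 of the 57 genes had one. These 25 are the measured members, out of 13355 genes with a single-gene probe set in the whole series. Another 12 listed genes lay only on probe sets that several genes share, and 20 lay on no annotated probe set here, so neither kind is described as a single gene. Where a gene had more than 1 such probe set, the one with the highest mean over the 6 arrays was taken, and this applied to AT5G47260 alone. No change between treatments entered the choice of probe set, while the list itself was drawn up with earlier results of these data known.

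The seedlings were of the Col 0 ecotype, whole, 14 days of age and kept in liquid medium under constant light with gentle shaking. In the chitooctaose group, 20 µl of chitooctaose was added to 10 ml of medium, for a final concentration of 1 µM over 30 min, and the water group received 20 µl of water for 30 min. Each group had 3 arrays, stated to be biological replicates, and nothing but the added liquid differs between the groups in the labels. The series text gives 3 min in place of 30, and a short description of the chitooctaose samples names water, so titles and protocols were followed.

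A coiled-coil NBS-LRR receptor has a coiled-coil domain at its front, a nucleotide-binding switch in the middle and leucine-rich repeats at its end. Such receptors recognise pathogen effector proteins, or the damage these do to host proteins, and activated ones can assemble into channels in the plasma membrane that let calcium in and start the hypersensitive response. Too much receptor can trigger immunity without a pathogen, and plants keep these transcripts low, in part through microRNAs. Chitooctaose is a fragment of fungal chitin and is sensed by another layer of immunity, the LysM receptor kinases at the cell surface. The comparison of chitooctaose with water asks whether transcripts of the intracellular receptors respond to the surface signal within 30 min.

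Of the 25 measured genes 1 rose, CW9, and none fell (limma, Benjamini-Hochberg adjusted p under 0.05 over all 22746 tested probe sets). Over all tested probe sets 4.24% rose and 0.805% fell by the same test, so 1 of 25 genes, or 4%, was near the background. Among probe sets whose mean lay within the range of the members' means, a range chosen after the values were seen, 1.9% rose and 0.561% fell. At an unadjusted p under 0.05, 3 members were higher and 1 was lower, against 7.7% and 6.34% of all tested probe sets.

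CW9 (AT1G59620) is annotated as a coiled-coil NBS-LRR gene of chromosome 1, and no recognised pathogen is given for it here. Its deposited intensities, on a linear scale, were 132, 95.2 and 113 on the chitooctaose arrays and 53.9, 41.3 and 51.6 on the water arrays. Every chitooctaose array lay well above every water array. The means were 113 ± 18.4 in chitooctaose and 49.0 ± 6.73 in water (SD, n = 3 each), a log2 change of 1.21 (SE 0.18, 95% interval 0.76 to 1.66) and a 2.31-fold rise (limma, adjusted p = 0.0178). The call rested on all arrays but one: it was lost without chitooctaose replicate 1 (adjusted p = 0.0706) or 3 (0.0812) and without water replicate 1 (0.0578), 2 (0.0536) or 3 (0.0672). It was kept without chitooctaose replicate 2 (limma, adjusted p = 0.0300), and the log2 change lay between 1.09 and 1.33 in these 6 runs, which had fewer arrays in the model.

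**Figure D1:**
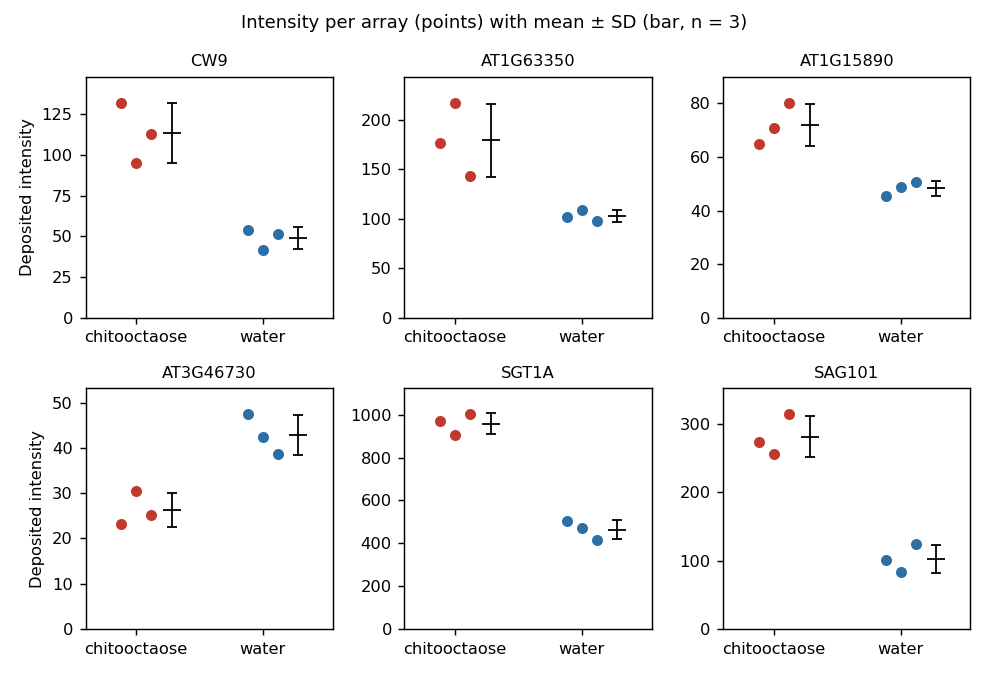
Deposited intensity (vertical axis, linear, from 0) of 4 coiled-coil NBS-LRR genes and of the signalling genes SGT1A and SAG101 on 3 chitooctaose arrays (red) and 3 water arrays (blue), with mean ± SD as black bars. CW9 lay between 95.2 and 132 in chitooctaose and between 41.3 and 53.9 in water, and AT3G46730 was the gene of the 4 that was lower in chitooctaose.

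Another 2 genes were higher on every chitooctaose array and came close to the threshold without passing it. AT1G63350 stood at 177, 217 and 143 in chitooctaose and at 102, 109 and 97.4 in water. Its chitooctaose arrays were spread widely and its water arrays closely. The log2 change was 0.78 (SE 0.17, 95% interval 0.36 to 1.21, limma adjusted p = 0.0727). AT1G63350 passed without chitooctaose replicate 3, its lowest chitooctaose array (log2 change 0.94, adjusted p = 0.0432). AT1G15890 stood at 64.8, 70.9 and 80.2 in chitooctaose and at 45.4, 48.9 and 50.8 in water, with no overlap. Its log2 change was 0.57 (SE 0.13, 95% interval 0.25 to 0.89, limma adjusted p = 0.0875).

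AT3G46730 had the most negative value. It stood at 23.2, 30.5 and 25.1 in chitooctaose and at 47.5, 42.4 and 38.6 in water. All 3 chitooctaose arrays were below all 3 water arrays, at low signal in both groups. The log2 change was -0.71 (SE 0.15, 95% interval -1.08 to -0.34), and the gene did not pass (limma, adjusted p = 0.0625). No member fell by this test, and AT3G46730 was the 1 lower member at an unadjusted p under 0.05. Intensities under a floor of 16 were set to it before log2 was taken. With a floor of 64, above all values of AT3G46730, no change is left.

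In all, 4 of the 25 genes were higher in chitooctaose with no overlap between the groups, against 9.1% of all tested probe sets, and 3 were lower with no overlap, against 10.4%. The fourth higher one was AT5G43740, at 71.6, 71.2 and 82.7 in chitooctaose and 66.0, 59.5 and 65.2 in water (log2 change 0.24). The groups came near each other, and the 95% interval ran from -0.06 to 0.54. Besides AT3G46730, the lower ones were AT1G53350, at 73.7, 54.3 and 73.2 in chitooctaose and 79.0, 77.4 and 89.1 in water, and AT5G47250. AT5G47250 stood at 115, 73.3 and 116 in chitooctaose and at 138, 117 and 129 in water, where replicate 2 was lowest in both groups. Their log2 changes were -0.30 and -0.36, with adjusted p of 0.532 and 0.558 (limma). The groups overlapped for the other 18 genes.

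**Figure D2:**
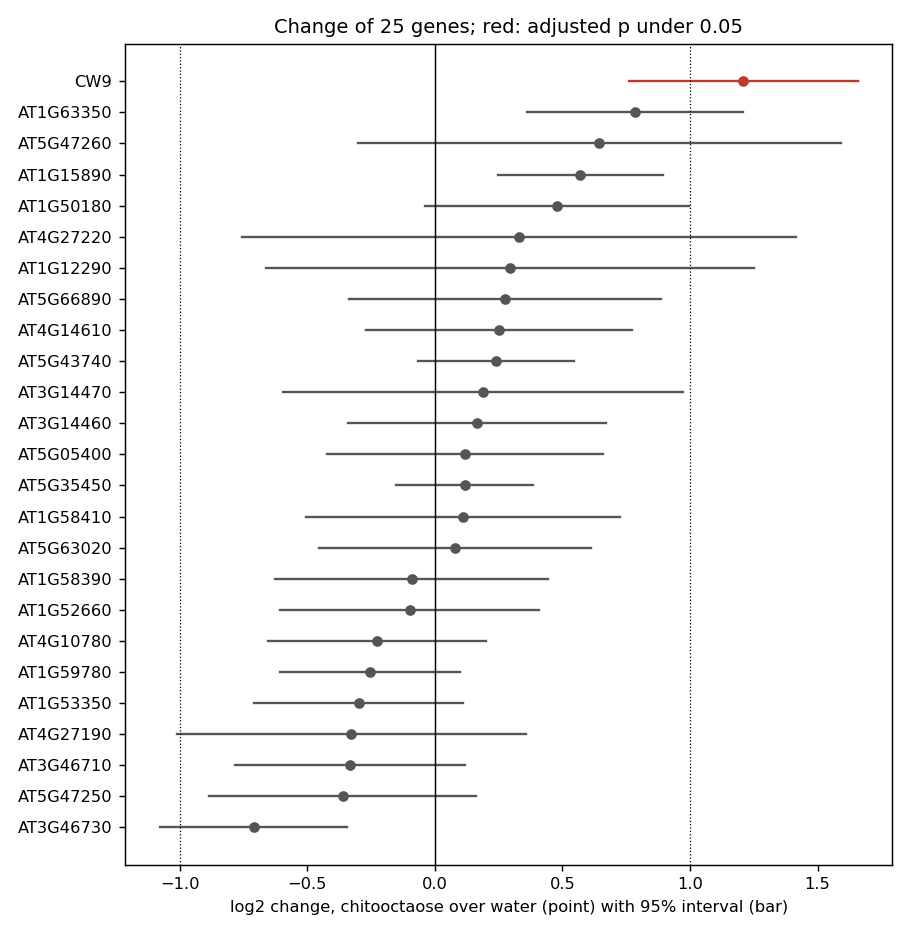
Log2 change of each of the 25 genes, chitooctaose over water (horizontal axis, points), with its 95% interval (bars) from the limma model, in order of the change. CW9 (red) passed the test, 24 genes (grey) did not, and dotted lines mark a 2-fold change in either direction.

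The changes of the 25 genes ran from -0.71 to 1.21 on the log2 scale, with a median of 0.12 and quartiles of -0.23 and 0.29. The median of all tested probe sets was -0.04, with quartiles of -0.16 and 0.08. The change was above 0 for 16 members (64%), against 38.4% of all tested probe sets, and within 0.5 of 0 for 20 members (80%), against 89.5%. The members' median depended on 1 array. Without water replicate 2 it was -0.016, where that of all tested probe sets was -0.067. Water replicate 2 had the lowest median intensity over the members (45.6, where the other 5 arrays had 53.9 to 61.0) and over all tested probe sets (156, where chitooctaose replicate 2 had 158 and the highest array 169). The members' median was 0.10 after median centring and 0.13 after quantile normalization, which set the arrays to a common level. Why the members' median differed without that array was not tested.

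Of the 24 genes that did not pass, 3 were at the floor on 1 array or more (AT1G50180, AT1G58390 and AT5G47260), where the interval depends on the floor. For 16 of the other 21 the 95% interval lay within 1 log2 unit (2-fold) on both sides of 0. The interval reached above 1 for AT1G63350, AT4G27220 and AT1G12290, and below -1 for AT3G46730 and AT4G27190. No interval reached beyond both. The widest was that of AT4G27220, from -0.76 to 1.42, and the narrowest that of AT5G35450, from -0.15 to 0.39.

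AT5G35450 stood at 131, 145 and 140.0 in chitooctaose and at 126, 118 and 139.9 in water. The groups overlapped, and the means were 139 ± 7.28 in chitooctaose and 128 ± 11.2 in water (SD, n = 3 each). AT1G58410, the member with the highest mean, stood at 204, 121 and 203 in chitooctaose and at 185, 133 and 162 in water. Its replicate 2 was lowest in both groups, and its log2 change was 0.11 (SE 0.25). AT5G63020 stood at 86.3, 134 and 124 in chitooctaose and at 89.3, 118 and 115 in water, with replicate 1 lowest in both groups and a log2 change of 0.08.

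Signals of the 25 measured members were low. The mean over 6 arrays was below the median of all probe sets (167) for 24 of the 25 genes, with AT1G58410 at 168 the exception. The members' means ran from 17.2 to 168 with a median of 55.8. This is read only as signal over background, since a probe set's intensity is not a transcript amount that can be set against another's. The 6 shared probe sets, which hold 12 other listed genes, had means of 217 to 1449, above the median of all probe sets. The standard error of the log2 change was 0.11 to 0.44 for the members, with a median of 0.21, against a median of 0.14 for all tested probe sets and 0.20 for probe sets in the members' range of means.

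**Figure D3:**
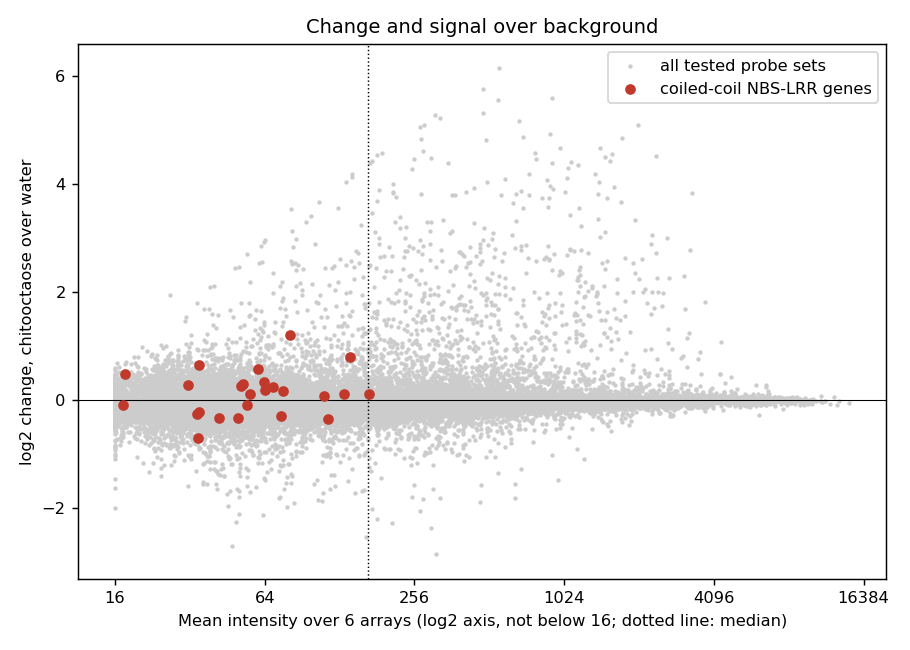
Log2 change of each probe set, chitooctaose over water (vertical axis), against its mean intensity over 6 arrays (horizontal log2 axis, values under 16 drawn at 16), for all 22746 tested probe sets (grey) and the 25 genes (red). All but 1 of the 25 lie left of the median of 167 (dotted line), where the spread of changes around 0 is wide.

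A pair of members had means near the floor of 16. AT1G50180 stood at 26.1, 13.7 and 26.5 in chitooctaose and at 8.90, 15.3 and 14.5 in water, so that all 3 water arrays and 1 chitooctaose array were at the floor and no exact fold can be given. AT1G50180 did not pass (limma, adjusted p = 0.401). It passed without chitooctaose replicate 2 (adjusted p = 0.0104), where the water arrays, all set to 16, have no spread. AT1G58390, with the lowest mean, stood at 14.7, 9.61 and 23.5 in chitooctaose and at 23.8, 19.1 and 12.3 in water. With 2 chitooctaose arrays and 1 water array at the floor, its size is not exact: the log2 change of AT1G58390 was -0.09, and -0.25 with a floor of 1. The groups overlapped.

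AT5G47260 was on a pair of probe sets, which did not run the same way. The one with the higher mean read 45.7, 52.3 and 31.4 in chitooctaose and 31.2, 39.4 and 9.73 in water, a log2 change of 0.65 (SE 0.38, limma adjusted p = 0.566). Water replicate 3 was at the floor and stood apart from the other arrays of its group. The other read 26.7, 27.0 and 22.7 in chitooctaose and 29.1, 31.9 and 29.7 in water, a log2 change of -0.25 (SE 0.11, adjusted p = 0.393). Neither passed, and no direction is given for AT5G47260.

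Receptor genes of this class often stand in clusters. In the gene order of the RefSeq table (assembly TAIR10.1), 5 pairs of measured members had at most 10 protein-coding genes between them. AT3G46710 and AT3G46730 on chromosome 3, with 1 gene between them, had log2 changes of -0.33 and -0.71. AT3G46710 stood at 44.5, 34.9 and 31.8 in chitooctaose and at 40.6, 45.1 and 54.1 in water, with overlapping groups. AT3G14460 and AT3G14470, with 2 genes between them, had log2 changes of 0.16 and 0.19, each with overlapping groups.

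None of the genes of the other 3 pairs passed the test. AT4G27190 and AT4G27220 are adjacent and had log2 changes of -0.33 and 0.33. AT4G27190 stood at 37.6, 38.3 and 55.8 in chitooctaose and at 59.3, 38.8 and 69.1 in water, and AT4G27220 at 43.4, 77.0 and 89.3 in chitooctaose and at 34.1, 88.7 and 49.8 in water. The groups overlapped for both. AT5G47250 and AT5G47260 are adjacent too (-0.36 and 0.65, the latter gene with its second probe set at -0.25), and AT1G58390 and AT1G58410, with 1 gene between them, had -0.09 and 0.11. The signs of AT1G58390 and AT1G58410 turned when some single arrays were left out.

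AT1G12290 lies next to SUMM2, a receptor gene known for guarding a MAP kinase cascade. AT5G47260 lies next to ADR1-L3, which the list of members places in the helper class that passes on signals from other receptors. AT1G12290 stood at 51.8, 64.9 and 50.2 in chitooctaose and at 58.2, 24.8 and 63.4 in water (log2 change 0.29, SE 0.39). Water replicate 2 stood apart from the other arrays for AT1G12290. AT1G59780, with 19 genes between it and CW9, stood at 29.9, 29.1 and 34.3 in chitooctaose and at 40.1, 40.1 and 31.6 in water (log2 change -0.25), and did not pass.

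The remaining members had overlapping groups. AT5G66890 stood at 23.6, 40.7 and 40.2 in chitooctaose and at 29.3, 30.5 and 24.2 in water, a log2 change of 0.28 (SE 0.25). AT4G14610, listed in the RefSeq table as a transcribed pseudogene, stood at 59.0, 53.1 and 53.5 in chitooctaose and at 35.9, 45.6 and 60.7 in water (0.25, SE 0.21). Their intervals were -0.34 to 0.89 and -0.27 to 0.77. AT5G05400, AT1G52660 and AT4G10780 had log2 changes of 0.12, -0.10 and -0.23, with adjusted p between 0.679 and 0.903 (limma).

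**Figure D4:**
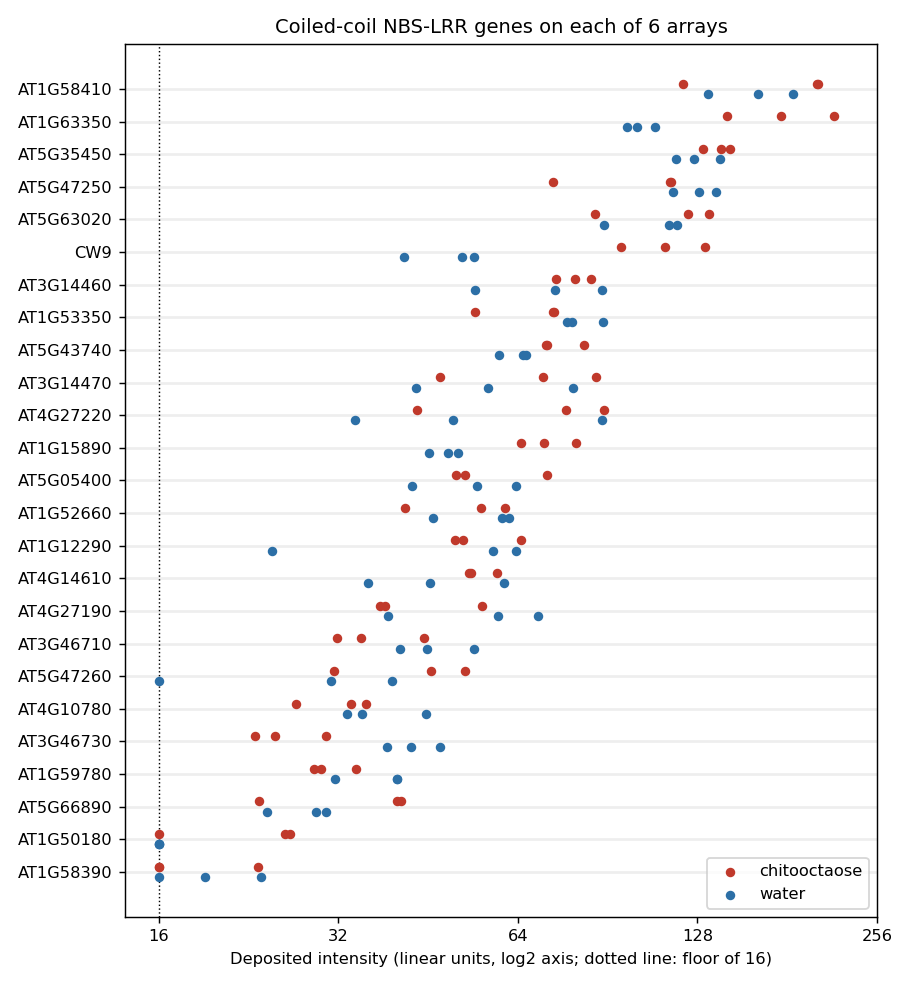
Deposited intensity of each of the 25 genes (horizontal log2 axis, values under 16 drawn at 16) on 3 chitooctaose arrays (red, upper row of each gene) and 3 water arrays (blue, lower row), in order of the mean. For 7 genes the groups do not overlap, CW9 with the widest gap on this axis, and for 18 they do.

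The RefSeq table gives a symbol to 14 of the 57 listed genes, and CW9 is the 1 measured among them. The other measured genes have a locus code alone, and whether each is a receptor or a helper is not given here. The receptors RPS2, RPM1, RPP8, RPP13, ZAR1 and SUMM2 had no single-gene probe set in the annotation used and are not analysed here. The same holds for ADR1, ADR1-L1, ADR1-L2 and ADR1-L3, which are listed as helpers. That annotation gives no gene to 8730 of the tested probe sets, so a missing match does not show that the array lacks probes for a gene. The results therefore do not speak for the best known receptors of the class.

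Of 33 listed genes that act with NBS-LRR receptors, not with the coiled-coil class alone, 2 were measured. Both rose, where 4.24% of all tested probe sets did. The list was chosen with earlier results known, and SAG101 had been seen to rise in them. SGT1A encodes a co-chaperone that works with HSP90 in the folding and stability of NBS-LRR proteins. It stood at 971, 903 and 1002 in chitooctaose and at 504, 471 and 415 in water. The groups were far apart, with a log2 change of 1.05 (SE 0.09) and a 2.08-fold rise (limma, adjusted p = 0.00120). SAG101, a partner of EDS1 in signalling through helper receptors, stood at 275, 256 and 315 in chitooctaose and at 101, 83.4 and 124 in water. Its groups did not overlap either, with a 2.77-fold rise (limma, adjusted p = 0.00617). The other 31 genes of the list, EDS1, PAD4, NDR1, RIN4 and RAR1 among them, are not analysed here.

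Shoot and root tissue were both present by their markers. Of 10 shoot markers 3 were measured and of 13 root markers 2, and none passed the test. The summed intensity of the shoot markers LHCB4.1, LHCB4.2 and LHCB4.3 was 14260 to 15702 in chitooctaose and 15077 to 15781 in water. That of the root markers PYK10 and EXPA7 was 9442 to 10243 in chitooctaose and 9501 to 9645 in water, nearly all of it PYK10. EXPA7 alone averaged 107 ± 28.9 in chitooctaose and 137 ± 22.4 in water (SD, n = 3 each), a log2 change of -0.38 (limma, adjusted p = 0.585). None of these markers was at the floor. In whole seedlings, fewer cells of a type and less RNA per cell cannot be told apart.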

How the data were processed

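Biotin-labelled cRNA from 7 µg of total RNA per sample was hybridised to 6 Affymetrix arrays, per the labels' protocols. The authors deposited linear intensities, with 1 value for each probe set on each array. How they summarised, background-corrected and scaled them is not stated in the labels or the table. Array medians were 156 to 169 and 163 to 213 values per array were below 0. The number of arrays limits the precision.

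Of 22810 probe sets, 64 controls were left out. Gene names follow the platform annotation and a RefSeq gene table (TAIR10.1): 13513 probe sets had 1 gene (13484 matched), 503 several and 8730 none. Intensities under 16 were set to 16 and log2 was taken. limma 3.58.1 in R 4.3.3 (lmFit, eBayes with trend) compared chitooctaose with water over all 22746 probe sets, 2-sided, with Benjamini-Hochberg adjustment. A test of limma on simulated data put changes only into probe sets of higher signal, so it does not speak for members of low signal. Changes are on the log2 scale of floored intensities, SE and 95% intervals come from limma, and means ± SD are of intensities. Intervals are not adjusted for the number of genes.

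The members and lists were chosen with earlier results of these data known. Named in full were members past the threshold, members with a known role, the 5 largest changes among the rest, the 3 highest and 3 lowest means and the measured signalling genes. The values of the other members are given because the list is short. Alternatives were other floors, scalings, variance models, probe set choices, left-out arrays and a replicate block. Replicate numbers are not stated to pair the arrays, so they were not taken to pair them. Deviations of same-numbered arrays correlated across probe sets at 0.05, 0.03 and -0.10. Such a correlation cannot see a shift in level that 2 arrays share. Replicate 2 had the lowest median over all tested probe sets in both groups (158 in chitooctaose and 156 in water).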

Additional observations from a re-analysis of the deposited data

Results flagged for a closer look

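Of the listed genes, 12 lie on 6 probe sets that several genes share, and these probe sets were in no comparison of single genes. Their means over 6 arrays ran from 217 to 1449. Looked at for signal that differs from water, 1 of the 6 was past the test, where 4.24% of all tested probe sets rose and 0.805% fell. It is annotated to 2 genes, both on the list and both classed there as helpers. It read 436, 437 and 457 in chitooctaose and 277, 195 and 287 in water. The groups did not overlap, and the log2 change was 0.83 (SE 0.16, limma adjusted p = 0.0451). Which of the genes it reads cannot be told apart, and its call is given for the main settings alone. The 1 helper measured as a single gene, AT5G66890, had a log2 change of 0.28 with overlapping groups (limma, adjusted p = 0.730). In all, 4 of the 6 shared probe sets were higher on every chitooctaose array than on any water array. None was lower on every one, and of all tested probe sets 9.1% were higher and 10.4% lower in this way. Among the 4, those with log2 changes of 0.44 and 0.36 are each annotated to 2 genes with only 1 on the list. Their signal may therefore be that of a gene outside the list. The 5 that did not pass had log2 changes from -0.15 to 0.44.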

How the results depend on the processing

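The number of member genes that rose was 1 with a floor of 1 or 64, after quantile normalization or median centring, with the replicate block (CW9, limma adjusted p = 0.0295), without probe sets of shared sequence, with 1 probe set for each gene and with the lowest-mean probe set of each gene. Without the variance trend it was 2, with AT1G15890 (adjusted p = 0.0420), and with robust variances 2, with AT1G63350 (0.0234). Without the dimmest 40% of probe sets 5 members remained, CW9 not among them, and AT1G63350 passed (0.0171). With single arrays left out it was 0 to 2. No member fell under any of these settings. The members' median log2 change was 0.0 with a floor of 64, -0.016 to 0.16 with single arrays left out, and 0.12 without members that touched the floor, a version chosen after seeing the data. Over all probe sets 754 rose and 93 fell with the replicate block, in place of 964 and 183. Testing 1 probe set for each gene, a smaller table, gave 479 and 63. With single arrays left out 86 to 176 fell and 721 to 835 rose. The signalling genes SGT1A and SAG101 passed under all settings run. With single arrays left out, values near 0 changed sign in 3 of 6 runs each: that of AT1G58390 ran from -0.28 to 0.056 and that of AT1G58410 from -0.016 to 0.36. AT5G47260 changed sign with its lower probe set (-0.25). The cause was not tested. With a floor of 64, above its water values, the log2 change of CW9 was 0.81 by construction. Members with values close to 16 have no exact fold.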
